A study of Rattus norvegicus with 21 samples.

Results

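The comparison described here asks in which genes the response to 16 h of cytokines differed between 2 lines derived from INS-1, cells of a rat insulin-producing tumour that stand in for the pancreatic beta cell. It was formed for every probe set as the change from 0 to 16 h in the line pCTSH1 minus the same change in the line pcDNA, on the log2 scale, and is called the difference of responses below. It rests on 12 of the 21 arrays of the series, which form 4 of its 7 groups, with 3 arrays per group chosen by the sample titles. Both lines carry a stably integrated plasmid: pcDNA the empty vector, and pCTSH1 a plasmid encoding the lysosomal protease cathepsin H (CTSH). At 0 h the cells had been precultured for 3 days and had received no cytokine, and at 16 h they had been exposed to IL-1β (mouse protein, 150 pg/ml) together with IFNγ (rat protein, 5 ng/ml). The 9 arrays outside the contrast, which are untransfected INS-1 cells at 0 h and both lines at 6 h, entered the shared estimate of the spread. The pCTSH1 line is 1 clone, so an effect of CTSH and any other property of that clone cannot be told apart. The comparator is 1 line too, and untransfected cells were measured at 0 h only. A property of the pcDNA line can therefore not be told apart either. No array was made of untreated cells at 16 h, so the cytokines cannot be told apart from time in culture within a line. The labels number the replicates without saying that they are separate cultures, and the p-values therefore measure the spread between these arrays, which may be technical.

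IL-1β acts mainly through NF-kB and the stress-activated kinases, and IFNγ through Janus kinases. In beta cells their combination induces chemokines, antigen presentation, nitric oxide synthesis, endoplasmic reticulum stress and, in time, apoptosis, and it is a common model of the islet inflammation of type 1 diabetes. Cathepsin H is encoded at a locus linked to that disease. Members of the NADPH oxidase family make superoxide, and several of them need a Rac GTPase for their activity.

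The promoters of 3 genes on which the results turn are shown, and these genes differed in 3 different ways. Nox1 rose more in pCTSH1, Ptgs1 rose in pcDNA and was not called in pCTSH1, and Psmb8 started lower in pCTSH1 and ended level. No promoter was available for Rac2 or Ciita, so these could not be shown or searched. Each sequence holds the 250 bases before the transcription start of RefSeq (build GRCr8), 5′ to 3′ on the gene's strand, at chrX:101595521-101595770 (minus strand) for Nox1, chr3:39981169-39981418 (plus strand) for Ptgs1 and chr20:4657032-4657281 (minus strand) for Psmb8. Capitals mark matches to a searched motif.
Nox1: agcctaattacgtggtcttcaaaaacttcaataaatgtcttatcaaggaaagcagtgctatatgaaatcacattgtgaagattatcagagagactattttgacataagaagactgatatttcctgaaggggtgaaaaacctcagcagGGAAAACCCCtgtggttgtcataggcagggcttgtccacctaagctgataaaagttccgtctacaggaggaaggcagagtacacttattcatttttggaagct
Ptgs1: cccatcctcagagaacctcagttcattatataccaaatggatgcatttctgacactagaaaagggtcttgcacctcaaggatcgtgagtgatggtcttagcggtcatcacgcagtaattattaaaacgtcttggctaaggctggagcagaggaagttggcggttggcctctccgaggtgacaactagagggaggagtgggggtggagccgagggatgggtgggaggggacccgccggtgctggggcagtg
Psmb8: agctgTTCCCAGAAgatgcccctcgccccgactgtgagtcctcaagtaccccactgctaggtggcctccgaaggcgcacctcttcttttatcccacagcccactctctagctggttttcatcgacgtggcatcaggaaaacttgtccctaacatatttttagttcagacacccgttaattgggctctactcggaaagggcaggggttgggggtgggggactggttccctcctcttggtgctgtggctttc
The motifs searched, on both strands, were the interferon gamma activated site (GAS) TTCNNNGAA, the kappaB motif of NF-kB (by name), the AP-1 site TGANTCA, the amino acid response element TTGCATCA and the CArG box of serum response factor (by name). Matches of different motifs may overlap. The capitals in Nox1 are a kappaB match, those in Psmb8 a GAS match, and Ptgs1 held none of the 5 motifs in this window. Of all 27457 promoters of this length in the table, 3.52% held a kappaB match, 7.52% a GAS match, 6.36% an AP-1 match, 0.656% an amino acid response element and 1.5% a CArG box. The table held 16 of the 22 genes called with a higher response in pCTSH1, and of these 2 held a kappaB match (Nox1 and Phf11), 2 a GAS match, 1 an AP-1 match and 1 a CArG box. Of 12 matched genes among the 15 called lower, 1 held a GAS match and none held any of the other 4 motifs. These matches describe letters in the windows only.

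The transfected gene was read first. Ctsh (Entrez 25425, 1 probe set) lay at or near the background of the arrays in all 4 groups: 3.87, 3.99 and 3.84 (log2) in pcDNA at 0 h, 4.18, 3.50 and 3.71 at 16 h, 4.13, 3.85 and 4.02 in pCTSH1 at 0 h, and 5.08, 4.15 and 4.11 at 16 h. Background was read per array from its brightest nonspecific control, at 3.969 to 4.175 over the 12 arrays. One array of pCTSH1 at 16 h stood above the others, and the other groups overlapped. The difference of responses did not pass the test (adjusted p = 0.663, limma with Benjamini-Hochberg adjustment). Neither the species of the transfected sequence nor its overlap with this rat probe set is stated in the labels, so the reading does not check the label. Ins1 and Ins2, the rat insulin genes, were high in all 4 groups, at 13.49 to 13.78 and 12.20 to 13.32 (log2). Of 17 measured beta-cell transcription factors, 8 fell and 4 rose in pcDNA, and 7 fell and 4 rose in pCTSH1. Of all genes, 29.5% and 30.1% fell and 25.8% and 25.2% rose. Nkx6-1 went from 8.46 to 5.45 in pcDNA and from 9.04 to 5.26 in pCTSH1 (group means). Pdx1 went from 9.73 to 7.74 and from 9.69 to 7.96. Gcg, the glucagon gene of alpha cells, read 8.60 in pcDNA and 8.88 in pCTSH1 at 0 h.

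Both lines changed many genes between 0 and 16 h, mostly by similar amounts, and few genes had a called difference. Across 31042 probe sets the responses of both lines had a Pearson r of 0.966, given as a description of probe sets measured on the same arrays, and their SDs were 0.867 in pcDNA and 0.866 in pCTSH1. The difference of responses had an SD of 0.225 and lay below 0.5 in size for 96.7% of probe sets. Its standard error had a median of 0.172, so that the 95% interval of a typical probe set reached 0.36 to either side. In limma, 66 probe sets (0.213%) had an adjusted p below 0.05. Of these, 39 (0.126%) had a higher response in pCTSH1 and 27 (0.087%) a lower one. At an unadjusted p below 0.05 there were 2471. The response itself was called for 14399 probe sets (46.4%, with 21.3% up and 25.1% down) in pcDNA and 14413 (46.4%, with 20.8% up and 25.6% down) in pCTSH1. For the difference at 6 h, given beside some genes below, 32 probe sets were called (0.103%), 6 higher (0.0193%) and 26 lower (0.0838%). The count of 66 dropped to 30 in a fit of the 12 arrays alone, which shared 24 probe sets with it, and to 36 without replicate 1 of pCTSH1 at 0 h.

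**Figure D1:**
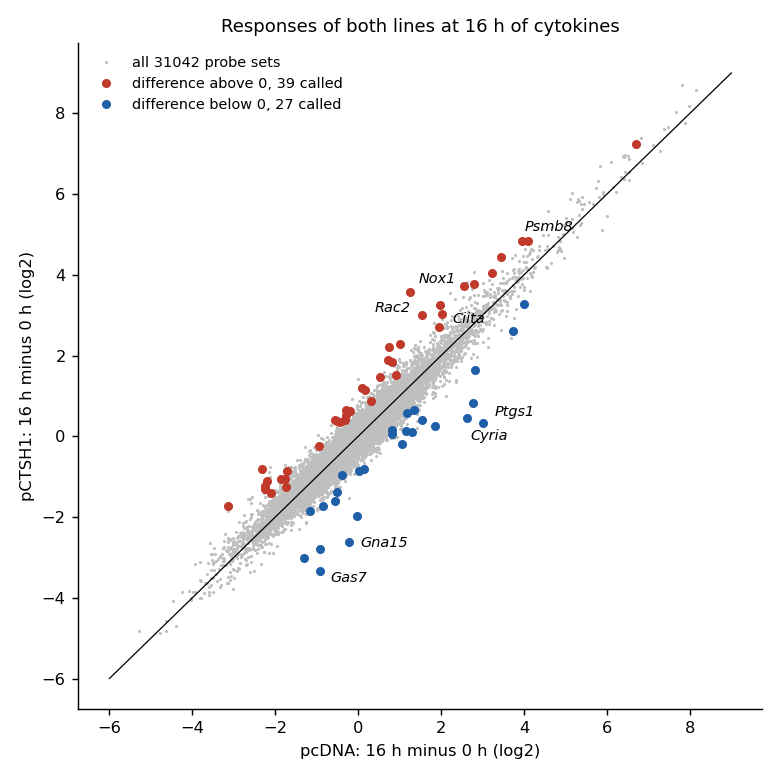
Change from 0 to 16 h of cytokines in pcDNA (x axis) and pCTSH1 (y axis), both in log2 units, for all 31042 probe sets (grey). The diagonal marks equal responses. The 39 called probe sets with a higher response in pCTSH1 (red) lie above it and the 27 with a lower one (blue) below it, and most grey points follow the diagonal.

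Of the 66 probe sets, 41 carry 1 gene symbol, 1 carries several and 24 are unnamed in the annotation used. With 1 probe set per gene, 37 of 13438 genes were called (0.275%), 22 higher (0.164%) and 15 lower (0.112%). In 18 of the 66, at least 2 of the 3 arrays of a group lay at background, and no size is given for those. Among the other 48, 16 differed by 2-fold or more. Just inside the threshold lay Cnnm2 (-1.02, adjusted p = 0.0441) and Cxcl3 (0.0469), and just outside it an unnamed probe set (-0.71, 0.0505) and Cyp4a8 (0.70, 0.0516).

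The 39 higher probe sets were of 4 kinds by the calls of the response within each line. In 19 both lines rose and pCTSH1 rose further, in 11 both fell and pCTSH1 fell less, in 6 pcDNA fell while pCTSH1 rose, and in 3 the rise was called in pCTSH1 and not in pcDNA. Of the 27 lower probe sets, 8 rose in both lines but less in pCTSH1, 8 fell in both but further in pCTSH1, 7 were called up in pcDNA and not called in pCTSH1, and 4 were called down in pCTSH1 and not called in pcDNA. A second division follows from the levels of the lines at each time. For 27 of the 39 higher and 12 of the 27 lower probe sets the lines were called different at 16 h, in the direction of the difference, and not at 0 h. For 8 of the higher and 7 of the lower ones the lines were called different at 0 h, in the opposite direction, and not at 16 h. Over all probe sets the lines were called different for 1.87% at 0 h (1.15% higher and 0.728% lower in pCTSH1) and 3.8% at 16 h (2.33% higher and 1.48% lower). They share arrays with the difference of responses and are given to show on which side it arose.

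The highest difference of responses belonged to Nox1 (Entrez 114243), the catalytic subunit of a superoxide-producing NADPH oxidase. Its level in pcDNA was 5.03, 5.03 and 4.89 (log2) at 0 h and 5.86, 6.34 and 6.48 at 16 h. In pCTSH1 it was 5.08, 4.88 and 5.26 at 0 h and 8.51, 8.82 and 8.61 at 16 h. At 0 h the lines overlapped, and at 16 h every pCTSH1 array lay above every pcDNA array. Nox1 thus rose 2.37-fold in pcDNA and 11.9-fold in pCTSH1, a difference of 2.33 ± 0.25 on the log2 scale (SE, n = 3 per group, adjusted p = 1.05e-04, limma) with a 95% interval of 1.80 to 2.86. The call held without any 1 of the 12 arrays, with adjusted p up to 7.28e-04. At 6 h the difference was 1.13 ± 0.25 and did not pass (adjusted p = 0.134, limma).

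Rac2 (Entrez 366957), a small GTPase best known from blood cells, where it activates the NADPH oxidase, followed the same order. Its level in pcDNA was 4.31, 4.64 and 4.56 (log2) at 0 h and 5.97, 6.20 and 5.95 at 16 h, and in pCTSH1 4.37, 4.47 and 4.35 at 0 h and 7.33, 7.42 and 7.44 at 16 h. The lines overlapped at 0 h and stood apart at 16 h. Rac2 rose 2.90-fold in pcDNA and 7.99-fold in pCTSH1, and both folds are compressed because the 0 h levels lay within 0.5 of background. The difference was 1.46 ± 0.27 (adjusted p = 0.0217, limma). That call was lost without replicate 2 (0.0722) or 3 (0.0573) of pcDNA at 0 h, replicate 1 of pcDNA at 16 h (0.052), replicate 1 (0.0647) or 3 (0.0525) of pCTSH1 at 0 h, and replicate 2 (0.0555) or 3 (0.0581) of pCTSH1 at 16 h, while the value stayed between 1.39 and 1.55. With 1 variance per group the adjusted p was 0.076, and in a fit of the 12 arrays alone it was 0.00132.

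In a list of 22 measured Rac GTPases, oxidase subunits and Rac regulators, Nox1 and Rac2 were the 2 called members and both were higher. Of all genes, 0.164% were called higher. The list was chosen with earlier results of these data known, so these calls are no independent evidence. At an unadjusted p below 0.05 (limma) there were 5 of the 22, against 1150 of all 13438 genes. Cyria, whose product binds Rac1 (below), is outside the list and was called lower (adjusted p = 1.05e-04, limma). The median over the list was 0.07, against -0.0032 over all genes. Rac1, the widely expressed family member, changed almost equally in both lines, from 10.90 to 11.31 in pcDNA and from 11.19 to 11.65 in pCTSH1 (log2 group means), a difference of 0.05 with a 95% interval of -0.16 to 0.25. Among the partners of the oxidase, Cyba, which forms the membrane complex with the catalytic subunit, read 3.63 to 3.83 in the 4 groups, Noxo1, the organizer of Nox1, 3.86 to 4.18, and Ncf1, an organizer of the related phagocyte oxidase, 3.53 to 3.78, all at or near background. Vav2 and Vav3, exchange factors for Rac, had differences of 0.30 and -0.35, and neither passed (adjusted p = 0.518 and 0.537, limma). Of the 22 members, 8 had a group at background and 5 were at background in all 4 groups.

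**Figure D2:**
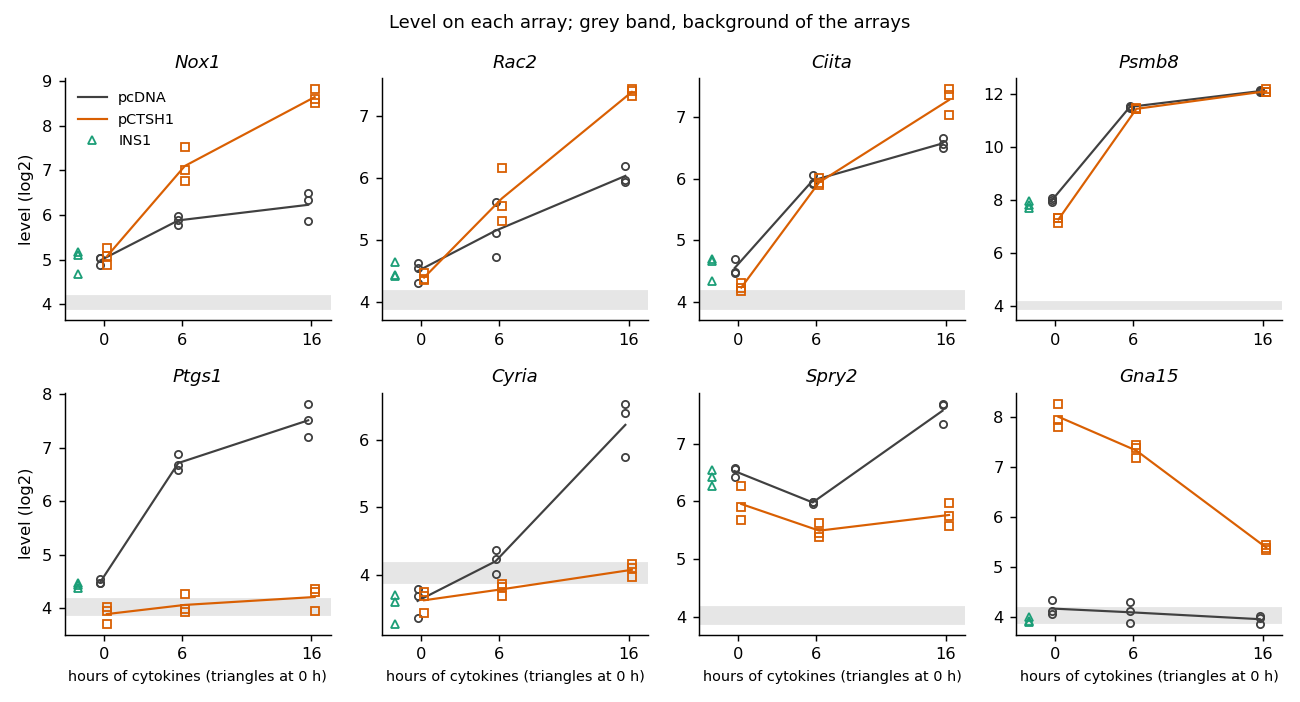
Level on each array (log2) of 8 genes against hours of cytokines in pcDNA (circles) and pCTSH1 (squares), with untransfected INS-1 cells at 0 h (triangles, drawn left of 0 h), lines through the group means and a grey band for the range of background. Nox1 and Rac2 start together and separate by 16 h, Psmb8 starts lower in pCTSH1 and ends level, Ptgs1 and Cyria climb in pcDNA and stay near background in pCTSH1, and Gna15 falls from a 0 h level far above that of pcDNA.

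Ciita (Entrez 85483), the master activator of the MHC class II genes, rose in both lines and further in pCTSH1. It read 4.48, 4.69 and 4.49 (log2) in pcDNA at 0 h and 6.49, 6.56 and 6.66 at 16 h, and 4.22, 4.18 and 4.31 in pCTSH1 at 0 h and 7.02, 7.44 and 7.35 at 16 h. The pCTSH1 arrays were thus below the pcDNA arrays at 0 h, with no overlap but no call (adjusted p = 0.215), and above them at 16 h (adjusted p = 6.32e-04, limma). Its rise was 4.04-fold in pcDNA and 8.21-fold in pCTSH1, folds again compressed by 0 h levels close to background, and the difference was 1.02 ± 0.15 (adjusted p = 0.00544, limma). In the list of 9 measured MHC class II genes Ciita was the 1 member called, where 0.164% of all genes were called higher. Of these 9, 5 had a group at background at 0 h and carry no size. All 9 fitted values were above 0, with a median of 0.59 that rests in part on background. The median over all genes was -0.0032. At an unadjusted p below 0.05 (limma) there were 4 of the 9, against 1150 of all 13438 genes. Among the members with no group at background, RT1-DMb (0.27 ± 0.30) and Ifi30 (0.04 ± 0.11) were also not called (adjusted p = 0.896 and 0.974, limma). Cd74, the invariant chain, which lay at background at 0 h, reached 11.65 in pcDNA and 12.03 in pCTSH1 at 16 h (group means, log2) and missed the threshold (adjusted p = 0.079, limma). RT1-DMa, which helps load peptides onto class II molecules, rose from 5.27 to 7.37 in pcDNA and from 5.06 to 7.84 in pCTSH1, and the difference of 0.68 ± 0.20 did not pass (adjusted p = 0.247).

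Psmb8 (Entrez 24968), a catalytic subunit of the immunoproteasome, which cuts peptides for MHC class I, showed the other kind of difference. It read 7.91, 8.02 and 8.07 (log2) in pcDNA and 7.16, 7.34 and 7.32 in pCTSH1 at 0 h, and 12.14, 12.11 and 12.07 against 12.07, 12.17 and 12.06 at 16 h. The lines stood apart at 0 h and overlapped at 16 h. Psmb8 rose 17.2-fold in pcDNA and 28.4-fold in pCTSH1, with a difference of 0.72 ± 0.11 (adjusted p = 0.00572, limma) that lies in the lower starting level, and the difference was also called at 6 h (0.65, adjusted p = 0.0174). Untransfected cells read 7.70, 7.80 and 7.96 at 0 h, above every pCTSH1 array. Psmb8 was, of 15 measured genes of MHC class I and the immunoproteasome, the 1 called member and the median was 0.16. Of all genes, 0.164% were called higher, and the median over all genes was -0.0032. At an unadjusted p below 0.05 (limma) there were 5 of the 15, against 1150 of all 13438 genes. Psmb9 (0.49 ± 0.13), Tap1 (0.52 ± 0.14) and Tap2 (0.55 ± 0.16), of the same proteasome and of the peptide transporter, did not pass (adjusted p = 0.179, 0.188 and 0.24, limma).

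Fas (Entrez 246097), the death receptor, followed the pattern of Psmb8. Its representative probe set read 5.55, 5.33 and 5.98 (log2) in pcDNA and 4.65, 4.70 and 4.89 in pCTSH1 at 0 h, with no overlap, and 9.58, 9.64 and 9.48 against 9.57, 9.50 and 9.67 at 16 h, with overlap. The difference was 0.89 ± 0.17 (adjusted p = 0.0302, limma). The call depended on single arrays. It was lost without replicate 1 of pcDNA at 0 h (0.05 after rounding), any replicate of pcDNA at 16 h (0.0572, 0.0519 and 0.0633 without replicates 1, 2 and 3), replicate 1 (0.0992) or 2 (0.0873) of pCTSH1 at 0 h, and any replicate of pCTSH1 at 16 h (0.0534, 0.0507 and 0.0765). The other 2 probe sets of Fas had differences of 0.32 and -0.13 and were not called, and with the mean of all 3 the difference was 0.36 (adjusted p = 0.144). In the fit of the 12 arrays alone the adjusted p was 0.169. Cebpd, an inflammatory transcription factor of the C/EBP family, was called on 1 of its 3 probe sets, where it read 7.41, 7.25 and 7.50 in pcDNA and 6.15, 6.25 and 6.25 in pCTSH1 at 0 h, and 9.32, 9.42 and 9.28 against 8.92, 9.02 and 8.82 at 16 h. It was lower in pCTSH1 at both times, and the gap narrowed, with a difference of 0.74 ± 0.11 (adjusted p = 0.00572, limma). The representative probe set of Cebpd gave 0.57 ± 0.13 (adjusted p = 0.0847).

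Myb, Elmod1 and Vps53 rose in both lines and further in pCTSH1, and the lines had no called difference at 0 h. Myb (Entrez 498982), a transcription factor of blood precursors, read 6.75, 6.59 and 6.77 (log2) in pcDNA and 6.95, 6.39 and 6.68 in pCTSH1 at 0 h, and 7.40, 7.61 and 7.27 against 8.66, 8.45 and 8.57 at 16 h. The lines overlapped at 0 h only, and the difference was 1.16 ± 0.18 (adjusted p = 0.00544, limma), or a rise of 1.65-fold against 3.69-fold. Both lines were highest at 6 h, at 8.59 and 9.22 (group means). Elmod1 (Entrez 315670), an activator of GTP hydrolysis by Arf GTPases, went from 4.69, 5.13 and 4.96 to 5.27, 5.91 and 5.82 in pcDNA and from 4.73, 4.56 and 4.93 to 7.09, 6.88 and 6.89 in pCTSH1. It rose 1.67-fold and 4.64-fold, a difference of 1.47 ± 0.23 (adjusted p = 0.00663, limma), and at 6 h the difference was 0.03. Vps53 (Entrez 287535), a subunit of the GARP complex of endosome-to-Golgi transport, rose 1.43-fold in pcDNA and 2.76-fold in pCTSH1, a difference of 0.94 ± 0.14 (adjusted p = 0.0028). At 16 h its arrays read 8.68, 8.49 and 8.68 against 9.73, 9.88 and 9.58, with no overlap. Sgtb, a co-chaperone, was called on 1 of 3 probe sets (0.99 ± 0.16, adjusted p = 0.00789, limma), which lay at 4.31 to 4.50 at 0 h and at 4.73, 4.55 and 4.19 against 5.67, 5.62 and 5.45 at 16 h. On it Sgtb rose 2.22-fold in pCTSH1, a fold compressed by 0 h levels near background, and its change in pcDNA was not called (adjusted p = 0.27). The brighter representative probe set of Sgtb gave 0.64 ± 0.18 and was not called (adjusted p = 0.199).

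Of the 39 higher probe sets, 11 fell less in pCTSH1 and 6 fell in pcDNA while rising in pCTSH1, and some are given here. Cyb5r3 (Entrez 25035), the NADH-dependent reductase of cytochrome b5, read 10.35, 10.52 and 10.34 (log2) in pcDNA and 10.32, 10.43 and 10.49 in pCTSH1 at 0 h, and 8.74, 8.42 and 8.48 against 9.45, 9.26 and 9.35 at 16 h. It fell 3.62-fold and 2.08-fold, a difference of 0.80 ± 0.13 (adjusted p = 0.00867, limma). Jakmip1, which binds Janus kinases and microtubules, fell in pcDNA from 9.03, 9.05 and 8.97 to 8.77, 8.73 and 8.66 and rose in pCTSH1 from 8.20, 8.33 and 8.55 to 8.94, 8.90 and 8.86, a difference of 0.84 ± 0.14 (adjusted p = 0.00867). Ccdc96 likewise fell in pcDNA, from 6.79, 6.73 and 6.91 to 6.13, 6.30 and 6.30, and rose in pCTSH1, from 6.64, 6.45 and 6.37 to 6.79, 7.01 and 6.84 (0.96 ± 0.15, adjusted p = 0.00605). For Jakmip1 the called gap between the lines was at 0 h, where pCTSH1 was lower (-0.66, adjusted p = 5.27e-04), and not at 16 h (0.18, adjusted p = 0.407). For Ccdc96 it was at 16 h (0.64, adjusted p = 0.00122) and not at 0 h (adjusted p = 0.176). Egr1 (Entrez 24330), an immediate early transcription factor, peaked at 6 h in both lines (11.71 and 11.80, group means). From 0 to 16 h it went from 7.75, 7.66 and 7.46 to 7.16, 6.98 and 7.16 in pcDNA and from 7.56, 7.57 and 7.28 to 7.63, 7.88 and 8.01 in pCTSH1. The difference of 0.89 ± 0.16 (adjusted p = 0.0217, limma) lost its call without replicate 1 (0.0684) or 2 (0.0668) of pcDNA at 0 h, replicate 2 of pcDNA at 16 h (0.0694), replicate 3 of pCTSH1 at 0 h (0.0594), and replicate 2 (0.0589) or 3 (0.0662) of pCTSH1 at 16 h, and in the fit of the 12 arrays alone (0.109).

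The lowest differences belonged to genes that 1 line scarcely expressed. Ptgs1 (Entrez 24693), cyclooxygenase 1 of prostaglandin synthesis, read 4.46, 4.54 and 4.48 (log2) in pcDNA at 0 h and 7.20, 7.52 and 7.83 at 16 h, an 8.12-fold rise that is compressed by 0 h levels within 0.5 of background. In pCTSH1 it read 3.95, 3.71 and 4.02 at 0 h and 3.95, 4.37 and 4.31 at 16 h, at or near background both times, and the rise was not called (adjusted p = 0.0728). Every pcDNA array lay above every pCTSH1 array at both times. The test of the difference of responses gave an adjusted p of 4.83e-07 (limma), and no size is given because a pCTSH1 group was at background. At 6 h, when pcDNA read 6.69, 6.58 and 6.88 and pCTSH1 lay between 3.93 and 4.27, the difference was also called (adjusted p = 5.27e-05). Untransfected cells at 0 h read 4.46, 4.43 and 4.37, within the range of pcDNA or just below it. A second probe set of Ptgs1 gave an adjusted p of 0.718.

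Cyria (Entrez 298890), which binds active Rac1 and restrains its signal, was at background in both lines at 0 h and reached 6.40, 6.54 and 5.74 (log2) in pcDNA at 16 h, while pCTSH1 read 3.96, 4.10 and 4.17, with 2 of 3 arrays still at background. The difference was called with an adjusted p of 1.05e-04 (limma) and carries no size. Ano3, of the anoctamin family of membrane proteins, read 4.30, 3.82 and 4.27 in pcDNA and 4.22, 4.28 and 4.22 in pCTSH1 at 0 h, and 5.46, 5.73 and 5.79 against 4.74, 4.65 and 4.53 at 16 h. The difference was -1.13 ± 0.19 (adjusted p = 0.0106, limma) and is compressed by 0 h levels near background. The second probe set of Ano3 gave 0.08 and was not called, and with the mean of both the difference was -0.52 and the call was lost (adjusted p = 0.221). Spry2 (Entrez 306141), an inhibitor of receptor tyrosine kinase and ERK signalling, was well above background in all groups. It read 6.58, 6.43 and 6.56 in pcDNA at 0 h and 7.69, 7.67 and 7.35 at 16 h, and 5.91, 6.27 and 5.68 in pCTSH1 at 0 h and 5.57, 5.98 and 5.74 at 16 h. Spry2 rose 2.07-fold in pcDNA, its change in pCTSH1 was not called (adjusted p = 0.283), and the difference was -1.24 ± 0.19 (adjusted p = 0.00572, limma). The pCTSH1 arrays were below the pcDNA arrays at both times, and at 16 h the gap was 3.50-fold.

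Gna15, Gas7 and Ttn formed the reverse case, with high levels in pCTSH1 before cytokines. Gna15 (Entrez 89788), a G protein alpha subunit that couples receptors to phospholipase C, read 7.80, 7.94 and 8.26 (log2) in pCTSH1 at 0 h and 5.38, 5.34 and 5.44 at 16 h, a 6.12-fold fall, while pcDNA read 4.06, 4.11 and 4.33 at 0 h and lay at background at 16 h. Gas7, a cytoskeletal protein, fell in pCTSH1 from 7.18, 7.03 and 7.21 to 3.56, 3.95 and 3.86, which is background. In pcDNA it fell from 4.44, 4.78 and 4.41 to background. Ttn, the giant muscle protein titin, fell in pCTSH1 from 6.64, 6.82 and 6.38 to 4.70, 4.96 and 4.29 and was at background in pcDNA at both times. The tests of the difference gave adjusted p-values of 3.66e-07, 4.83e-07 and 0.00165 (limma), with no size given because background limited the change in pcDNA and, for Gas7, in pCTSH1 too. For Gas7 both lines ended at background, and the called gap between them was at 0 h (adjusted p = 2.92e-10). Untransfected cells read 3.94, 4.58 and 3.54 at 0 h (group means), close to pcDNA and not to pCTSH1.

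**Figure D3:**
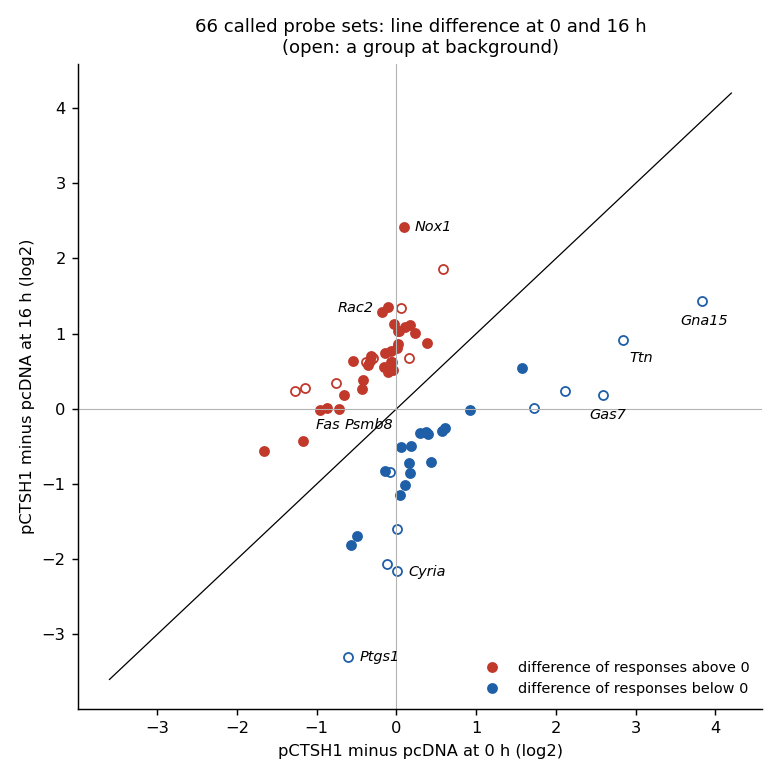
Level in pCTSH1 minus level in pcDNA (log2) at 0 h (x axis) and at 16 h (y axis) for the 66 called probe sets, with open circles where a group was at background. Points above the diagonal have a higher response in pCTSH1 (red) and points below it a lower one (blue); Nox1 and Rac2 lie near 0 on the x axis, Fas and Psmb8 near 0 on the y axis, and Gna15, Ttn and Gas7 far to the right.

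Sowahc and Eeig2 differed by less than 2-fold. Sowahc rose from 8.99, 9.05 and 9.03 (log2) to 10.15, 10.30 and 10.15 in pcDNA and from 9.25, 9.29 and 9.40 to 9.88, 9.83 and 9.95 in pCTSH1, so that the order of the lines turned over (-0.61 ± 0.10, adjusted p = 0.0106, limma). Eeig2 fell from 8.78, 8.85 and 8.79 to 7.68, 7.68 and 7.56 in pcDNA and from 9.15, 9.27 and 9.13 to 7.27, 7.28 and 7.43 in pCTSH1 (-0.69 ± 0.11, adjusted p = 0.00789). For both genes the lines overlapped at neither time, and for Eeig2 a second probe set was not called (-0.19). With the mean of both probe sets the difference of Eeig2 was -0.44 and the call was lost (adjusted p = 0.162).

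Of the 40 called probe sets named under the rule for genes, 20 kept their call without any 1 of the 12 arrays, 16 in a fit of the 12 arrays alone, and none changed direction in any setting tried. Those 20 are the probe sets given above for Nox1, Elmod1, Myb, Ciita, Sgtb, Ccdc96, Vps53, Jakmip1, Cyb5r3, Cebpd, Psmb8, Sowahc, Eeig2, Ano3, Spry2, Ttn, Cyria, Gna15, Gas7 and Ptgs1. In the fit of the 12 arrays alone the adjusted p was 0.0673 for Sgtb, 0.0516 for Vps53, 0.0848 for Cyb5r3, 0.0627 for Cebpd, 0.108 for Sowahc, 0.0595 for Eeig2 and 0.0619 for Spry2, and the other 13 of the 20 were called.

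**Figure D4:**
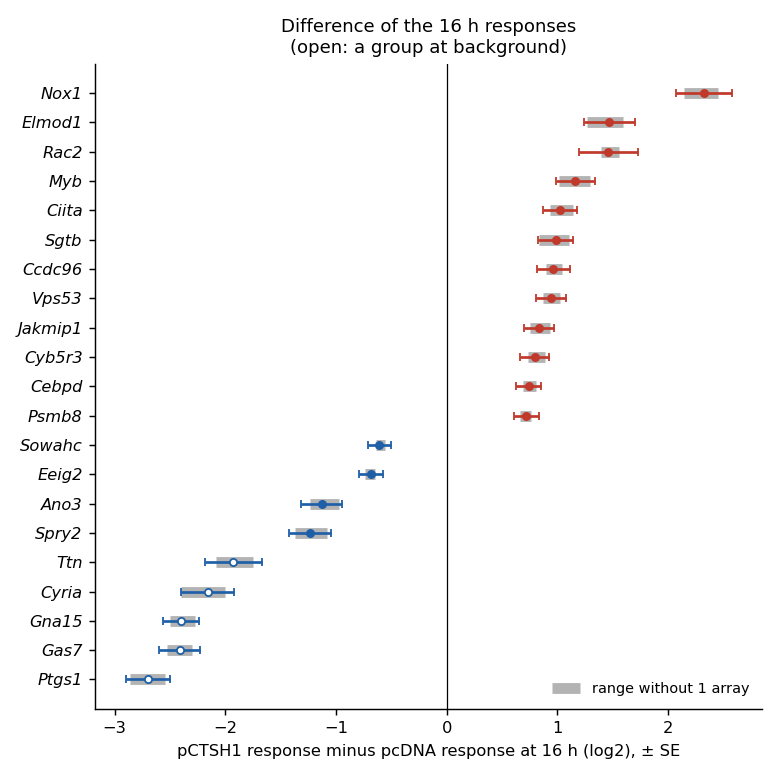
Difference of responses (pCTSH1 minus pcDNA, log2) with its standard error for 21 genes, which are Rac2 and the 20 genes whose calls held without any 1 array. Grey bars give the range of the value when 1 of the 12 arrays is left out, and open circles are fitted values that rest on a group at background and are not sizes. Every grey bar stays on its side of 0.

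The lists of interferon targets, NF-kB targets and nitric oxide genes had no member with a called difference, where 37 of all 13438 genes (0.275%) had one. At that share, the absence of calls in lists of this size says little about their members. Of 39 measured interferon target genes, 39 rose in pcDNA and 38 in pCTSH1, where 25.8% and 25.2% of all genes rose, with median changes of 3.38 and 3.58 (log2). None of the 39 had a called difference, and the median difference was 0.10. At an unadjusted p below 0.05 (limma), where 1150 of all 13438 genes lay, there were 13 of the 39. Of 32 NF-kB target genes, 23 rose in pcDNA and 22 in pCTSH1 and none had a called difference (median 0.06), with 7 at an unadjusted p below 0.05. Nos2, the inducible nitric oxide synthase, at background at 0 h, read 4.49, 5.09 and 4.41 in pcDNA and 4.87, 5.60 and 5.42 in pCTSH1 at 16 h, with overlap, and the difference was not called (adjusted p = 0.223, limma). None of the 17 genes of inducible nitric oxide synthesis and arginine use was called (median 0.12), and 4 had an unadjusted p below 0.05. Among 25 chemokine genes, 14 rose in pcDNA and 13 in pCTSH1, and 18 had a group at background. At an unadjusted p below 0.05 (limma) there were 9, and 1 had a called difference. That was Cxcl3, which attracts neutrophils and lay at background in both lines at 0 h. It read 10.29, 10.28 and 10.29 against 10.87, 10.95 and 11.07 at 16 h, with no overlap. Its call (adjusted p = 0.0469) held without replicate 1 of pCTSH1 at 16 h (0.0376) and was lost without any other 1 of the 12 arrays (adjusted p up to 0.128), in the fit of the 12 arrays alone (0.169) and with the mean of its 5 probe sets (0.502). Cxcl2 (0.85 ± 0.19) did not pass (adjusted p = 0.0829).

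Neither list of endoplasmic reticulum stress genes had a called member. Of all genes, 0.275% had a called difference, so its absence in lists of this size says little about their members. In the list of 34 PERK, ATF4 and CHOP genes, 29 rose in pcDNA and 28 in pCTSH1, where 25.8% and 25.2% of all genes rose. None had a called difference, and the median was -0.08. Vldlr, the very low density lipoprotein receptor, came closest (-0.59 ± 0.13, adjusted p = 0.0718, limma). The 25 chaperone genes of the ATF6 and XBP1 arm had no call and a median of -0.02. At an unadjusted p below 0.05 (limma) there were 4 of the 34 and 0 of the 25, against 1150 of all 13438 genes. Crebrf, a regulator of the unfolded protein response that is in neither list, was called lower on 1 of its 2 probe sets. On it Crebrf read 4.32, 4.30 and 4.79 (log2) in pcDNA and 4.51, 4.66 and 4.35 in pCTSH1 at 0 h, and 7.44, 7.53 and 6.91 against 6.17, 6.17 and 6.11 at 16 h. The lines overlapped at 0 h only. Crebrf rose 7.08-fold and 3.12-fold, folds compressed by 0 h levels near background, and the difference was -1.18 ± 0.23 (adjusted p = 0.0343, limma). The call held in 3 of the 12 fits that leave out 1 array (adjusted p up to 0.108) and was lost with the replicate block (0.0566) and in the fit of the 12 arrays alone (0.111). The brighter representative probe set of Crebrf gave -0.50 ± 0.15 and was not called (adjusted p = 0.279). Among 38 genes of the BCL2 family, caspases and death receptors, and among 23 p53 target genes, Fas was the 1 called member, with medians of 0.02 and -0.10. At an unadjusted p below 0.05 (limma) there were 5 of the 38 and 6 of the 23, against the same 1150 of all 13438 genes. The p53 targets rose for 15 of 23 in each line, where 25.8% of all genes rose in pcDNA and 25.2% in pCTSH1.

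Genes of growth and metabolism fell in similar numbers in both lines. Called differences were found in 0.275% of all genes, so their absence from lists of this size says little. Of 51 cell cycle genes, 44 fell in pcDNA and 44 in pCTSH1, where 29.5% and 30.1% of all genes fell, and none had a called difference (median 0.04). Closest were Pttg1 (0.44 ± 0.10) and Ccnd1 (0.87 ± 0.20), with adjusted p = 0.0822 and 0.0862 (limma). Of 37 genes of mitochondrial energy metabolism, 27 fell in each line and none had a called difference (median 0.04). Ppargc1a came closest, with a lower response in pCTSH1 (adjusted p = 0.0648, limma). Of 32 genes of cholesterol and fatty acid synthesis, 22 fell in pcDNA and 21 in pCTSH1, with no call for the difference (median -0.06). Of 36 AP-1 and immediate early genes, Egr1 was the 1 called (median -0.05). The 33 antioxidant enzymes (median 0.03) and the 29 feedback inhibitors and cytokine receptors (median 0.11) had no call. At an unadjusted p below 0.05 (limma) lay 1150 of all 13438 genes. Of the lists, 4 of 51 cell cycle genes, 2 of 37 mitochondrial genes and 2 of 32 of cholesterol and fatty acid synthesis lay there. There were also 7 of 36 AP-1 and immediate early genes, 4 of 33 antioxidant enzymes and 2 of 29 feedback inhibitors or receptors.

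Beta-cell genes likewise gave no call. Since 0.275% of all genes had one, the absence of calls in lists of this size says little about their members. Ins2 read 13.04, 12.91 and 12.99 (log2) in pcDNA and 13.22, 13.26 and 13.32 in pCTSH1 at 0 h, and 12.53, 12.33 and 12.20 against 13.16, 13.10 and 13.01 at 16 h. The lines did not overlap at either time. Ins2 fell 1.55-fold in pcDNA, its change in pCTSH1 was not called (adjusted p = 0.0918), and the difference of 0.46 ± 0.12 with a 95% interval of 0.21 to 0.70 missed the adjusted threshold (adjusted p = 0.148, limma). Ins1 differed by -0.021 ± 0.087 (adjusted p = 0.982). In all, 35 genes of insulin synthesis and secretion (median 0.0051) and 17 beta-cell transcription factors (median -0.05) had no called difference. Nor had 38 lysosomal genes (median 0.04) and 26 neuronal markers (median 0.10). Of these lists, in that order, 3, 4, 3 and 4 members had an unadjusted p below 0.05 (limma), against 1150 of all 13438 genes. Among the transcription factors these were Foxa3 (-0.50 ± 0.13) and Nkx6-1 (-0.77 ± 0.23), and in the other direction Tcf7l2 (0.53 ± 0.18) and Pdx1 (0.26 ± 0.11). Their adjusted p was 0.143, 0.257, 0.394 and 0.571 (limma). The list of 25 candidate genes of type 1 diabetes had 1 called difference, Rac2, and a median of 0.03, with 2 at an unadjusted p below 0.05 (limma). This list holds the transfected gene, and Rac2 was known from earlier results of these data, so it is no independent evidence. A list of 22 genes chosen because the lines differed at 0 h in these samples had 1 higher (Fas) and 4 lower (Gas7, Gna15, Ttn and Runx1t1), and since it shares the 0 h arrays with the difference of responses, it is no independent evidence either. The calls of Fas and Runx1t1 held in 3 each of the 12 fits that leave out 1 array.

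**Figure D5:**
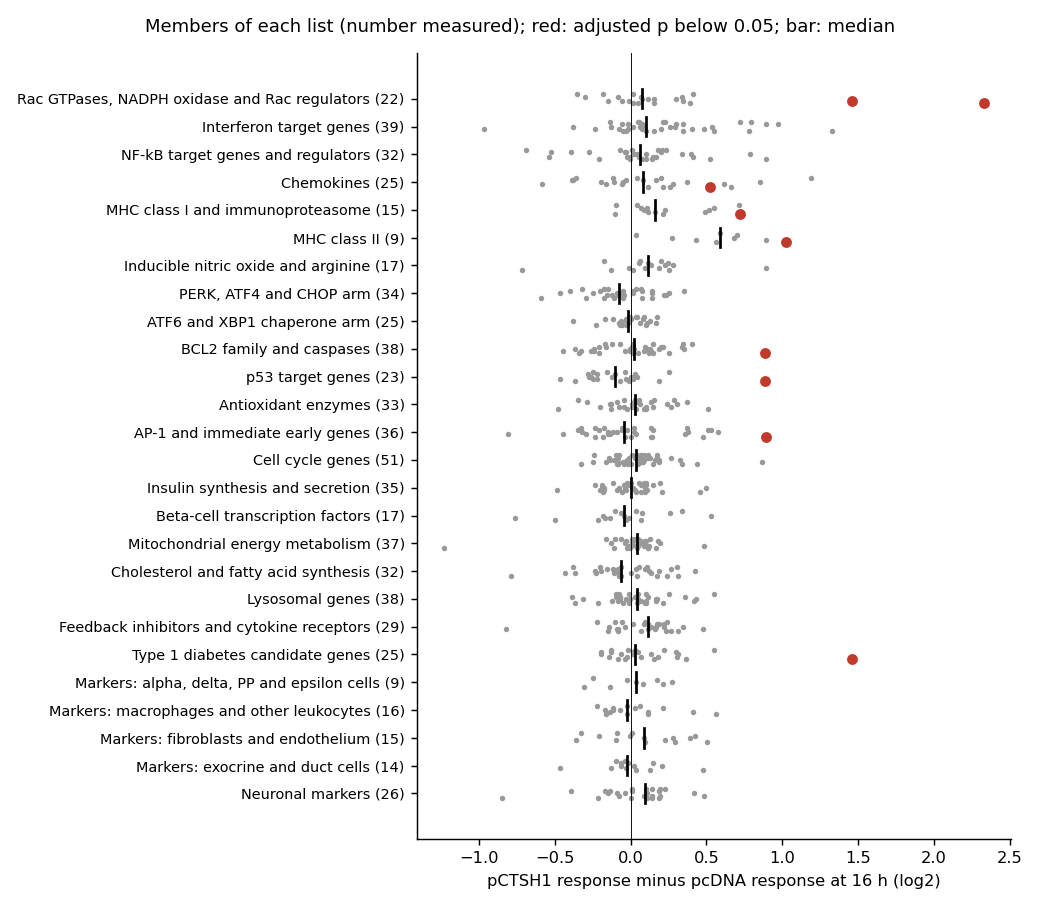
Difference of responses (pCTSH1 minus pcDNA, log2) of each measured member of 26 gene lists, with the number measured in brackets, called genes in red and the list median as a bar. Nearly all members are grey and lie within 0.5 of 0; the red points are Nox1, Rac2, Cxcl3, Psmb8, Ciita, Fas (in 2 lists) and Egr1, with Rac2 shown again among the diabetes candidates. Points of genes with a group at background, such as Cxcl3, are fitted values and not sizes.

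Markers of other cell types gave no called difference, where 0.275% of all genes had one. Called were 0 of 9 for alpha, delta, PP and epsilon cells and 0 of 16 for macrophages and other leukocytes. For fibroblasts and endothelium it was 0 of 15, and for exocrine and duct cells 0 of 14. At an unadjusted p below 0.05 (limma) there were 0, 1, 3 and 2, against 1150 of all 13438 genes. Because Rac2, Myb and Ciita are best known from blood cells, the leukocyte list is given beside them. Of its 16 markers 10 lay at background in all 4 groups, among them the defining Ptprc, Csf1r, Cd14, Itgam, Tyrobp and Cd3e. The other 6 were above background in each group. Of these, Coro1a, an actin-binding protein of leukocytes, had a difference of the same sign as Rac2, although it fell in both lines. It went from 7.31 to 5.39 in pcDNA and from 7.53 to 6.17 in pCTSH1 (group means, log2), a difference of 0.56 ± 0.24 that was not called (unadjusted p = 0.0327, adjusted p = 0.573, limma). Cd68, a lysosomal protein abundant in macrophages, rose from 4.69 to 5.52 in pcDNA and from 4.65 to 5.89 in pCTSH1 (0.41 ± 0.27, adjusted p = 0.77). Lck, a kinase of T cells, lay at 6.87 to 7.18 in the 4 groups (-0.22 ± 0.21, adjusted p = 0.873), and Fcer1g, Lyz2 and Laptm5 differed by 0.12, 0.11 and -0.07. The part of these markers in the results for Rac2, Myb and Ciita was not tested. The sum of the unlogged levels over the list was 453.5 to 506 in pcDNA and 531.8 to 550.5 in pCTSH1 at 0 h, and 377.1 to 483.9 and 451.2 to 505.9 at 16 h. It was higher in pCTSH1 at 0 h with no overlap, and overlapped at 16 h.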

How the data were processed

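Total RNA of 21 INS-1 samples was hybridised to Affymetrix rat arrays, 1 array per sample. The values deposited by the authors are log2 probe set intensities made with RMA, which corrects background, normalizes arrays to a common distribution and summarises probes; RMA, affy and limma are named, without versions, per the submitters' processing notes, and the versions are not given in the sources used here. The values were used as deposited. Of 31137 probe sets, 95 were array controls, and the other 31042 were all tested, dim ones included. Because normalization aligns the arrays, a change shared by most probe sets could not be seen. The annotation gave 1 symbol for 19063 probe sets, several for 572 and none for 11407.

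Differences were tested in limma 3.58.1 under R 4.3.3 (lmFit and eBayes at default settings, 1 model of 7 group means over 21 arrays, two-sided, Benjamini-Hochberg adjustment over the 31042 probe sets, threshold 0.05). Values after ± are standard errors. Where a gene had several probe sets with 1 symbol (3985 of 13438 genes), the brightest on average stood for it. A probe set with at least 2 of 3 arrays of a group at or below background carries no size for the difference, and folds against levels within 0.5 of background are called compressed. Named were up to 20 genes per direction with the largest called differences, genes called on another probe set, up to 4 members of each list with the smallest p, and Ctsh, Rac2, Nox1, Nos2, Ins1 and Ins2; the text gives those whose calls held without any 1 array, the list members called and the fixed genes in full, and Crebrf was added after its values were seen. The comparison, its members and the lists were chosen with earlier results of these data known. Lists carry no test.

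Replicate arrays of a group correlated at 0.9919 to 0.996, and precision is limited by having 3 arrays per group. Arrays of equal replicate number deviated together by more than 0.1 in all 3 pairs in 1 of 6 pairs of groups (range -0.0903 to 0.244), so the block entered as an alternative only. On simulated data with 50 changed probe sets per size, the test recovered 24% at a difference of log2 0.5, 82% at 1 and 100% at 2 and at 3, and 3.77% of its calls were false. The alternatives were the replicate block, median centring, cyclic loess, the 12 arrays alone, each array left out, the brighter 50% of probe sets, probe sets above background in a group, trend and robust eBayes, array weights, 1 variance per group, averaging the probe sets of a gene, and a threshold of 0.01. Figures and promoter matches used Python 3.11.15 with matplotlib 3.10.9.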

Additional observations from a re-analysis of the deposited data

Results flagged for a closer look

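The difference between the responses of the lines was tested directly, as an interaction in limma, and the genes above are repeated here because that test called them (adjusted p below 0.05). Values are log2 differences, pCTSH1 minus pcDNA. Higher in pCTSH1 were Nox1 (2.33), Elmod1 (1.47), Rac2 (1.46), Myb (1.16), Ciita (1.02), Sgtb (0.99), Ccdc96 (0.96), Vps53 (0.94), Egr1 (0.89), Fas (0.89), Jakmip1 (0.84), Cyb5r3 (0.80), Cebpd (0.74) and Psmb8 (0.72). Lower were Sowahc (-0.61), Eeig2 (-0.69), Ano3 (-1.13) and Spry2 (-1.24). For the following, a group lay at background, and the fitted values are not sizes: Cxcl3 (0.53), Ttn (-1.93), Cyria (-2.16), Gna15 (-2.40), Gas7 (-2.41) and Ptgs1 (-2.70). The calls of Rac2, Fas, Egr1 and Cxcl3 ended when single arrays were left out, and those of the other 20 probe sets did not.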

How the results depend on the processing

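The count of 66 probe sets became 30 in a fit of the 12 arrays alone (24 of them among the 66), 110 in the brighter 50% of probe sets (49 shared), 102 in probe sets above background in all 3 arrays of a group (66 shared), 120 with eBayes trend and robust settings (62 shared) and 25 at an adjusted p below 0.01. The fit of 12 arrays has fewer arrays behind each estimate of the spread, and the filters test fewer probe sets (15521 and 20093). The causes of these changes in count, and of that under the trend and robust settings, were not tested. Leaving out 1 array gave 36 (without replicate 1 of pCTSH1 at 0 h) to 77. The replicate block gave 77 (62 shared), median centring 76, cyclic loess 71, array weights 75 and 1 variance per group 54 (all 54 shared). Median centring and cyclic loess moved the median difference by less than 0.012. Of the 40 called probe sets named, 37 were called with the replicate block, 31 with 1 variance per group, 12 in all settings run for single probe sets, and none changed direction. Ins1, which was not called (-0.021), ranged from -0.045 to 0.0089 without 1 array and changed sign without replicate 2 of pCTSH1 at 16 h (0.0089). Of 99 named probe sets that were not called, 81 passed in no setting. Dim levels limit the genes at background, and differences of log2 0.5 were mostly missed at this number of arrays.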

Other observations

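Of the 24 called probe sets without a gene symbol in the annotation used, 2 are given here. The probe set 1376128_PM_at rose by 3.75 in pcDNA and 2.60 in pCTSH1 (log2), a difference of -1.14 (adjusted p = 6.49e-04, limma), and 1376637_PM_at rose by 1.19 in pCTSH1 from a level 1.67 below that of pcDNA, a difference of 1.11 (adjusted p = 0.00661). Both lay above background in all 4 groups and were picked after their values were seen.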
